A study of Arabidopsis thaliana with 47 samples.

Results

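In Arabidopsis root cells, 108 probe sets stood far higher with cycloheximide (CHX) than without it. The rule that chose them also required that they move little when the transcription factor bZIP1 was sent to the nucleus. They were chosen from measured values. In cells carrying bZIP1 and given no dexamethasone (DEX), the mean with CHX had to exceed the mean without CHX by at least 5 on the log2 scale, which is 32-fold. The DEX effect, the mean of the groups with DEX minus the mean of those without, had to lie between -0.4 and 0.4 both with and without CHX. The 108 members came from 22746 probe sets. A table of probes paired 57 of them with 1 locus, and these are named here; 4 matched several loci, and the other 47 have no locus in that table.

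The cells were protoplasts from roots of Col-0 seedlings aged 10 days, digested for 4 h and transfected for 25 min. The construct held the red fluorescent marker RFP and either bZIP1 fused to a glucocorticoid receptor domain (GR) under the 35S promoter, or no transcription factor (the empty vector). Sorted RFP-positive cells were profiled on 47 Affymetrix ATH1 arrays, after whole-transcriptome amplification of their RNA. Each arm combined nitrogen (N, 20 mM KNO3 with 20 mM NH4NO3, given for 2 h) or 20 mM KCl in its place with DEX at 10 µM or its solvent, ethanol. The bZIP1 arm with CHX had 24 arrays, 6 in each of its 4 groups. They were labelled Biorep 1 or Biorep 2, taken here as 2 preparations, each with 3 treatment replicates. In the bZIP1 arm lacking CHX there were 12 arrays, 3 in each group. The empty-vector arm with CHX had 11, which is 3 in each group but 2 for KCl with DEX. No empty-vector arrays without CHX were analysed here. All cells had thus passed through wall digestion, transfection and sorting, and those of both CHX arms shared CHX.

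The values were log2 levels with a floor near 2.30, and array medians over all probe sets ran from 2.92 to 3.18. Pearson's r between arrays of 1 group was 0.978 to 0.996 in the bZIP1 arm with CHX, where groups mix 2 Bioreps, and 0.993 or above in the others. The floor differed slightly between the arms (2.298, 2.303 and 2.287), so the arms appear to have been summarised in separate runs. This is read from the values. CHX can therefore not be told apart from preparation or from separate summarisation in any difference between arms. Of 15 marker genes for root and leaf cell types only 1 was measured and named, the leaf gene RCA, whose medians of 2.62, 2.93 and 2.79 in the 3 arms lay near the floor. The root label could not be checked further.

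Cycloheximide stops ribosomes from elongating peptides. In plants, as in animals and yeast, many transcripts of early-response genes are short-lived and are held low by labile repressors or by decay that itself needs translation, and they pile up when translation stops, an effect known as superinduction. Auxin-responsive genes of the Aux/IAA and GH3 families, wound- and calcium-responsive genes and several families of transcription factors are textbook examples.

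Across the members the CHX difference ran from just over 5 to 10.55 on the log2 scale, with a median of 6.03 (65.3-fold). It reached 6 in 55 members, 7 in 33, 8 in 15 and 9 in 3. These are the values the rule used, given as a description. Of all probe sets 210 (0.923%) passed the difference of 5, whereas none was lower by 5, and the median over all was -0.01. The other 102 lay outside the DEX limits. In every member the lowest of the 12 CHX arrays without DEX was above the highest of the 6 arrays without CHX, with a smallest gap of 2.63. Without CHX most members were at or near background: 69 of 108 were not above 4 in 3 or more of the 12 arrays. The other 39 passed that filter, as did 10209 of all 22746 probe sets. Low levels were thus common over the array and not particular to the members. In the arrays without CHX or DEX, all 6 sat at the floor in 10 members, some did in 9 and none in 89. Another 3 members gave 1 repeated value, within 0.01, just above the floor. GCRMA can give a probe set a repeated background value of its own above the common floor, and 56 members had 1 value (to 3 decimals) in 3 or more of the 12 arrays without CHX. A repeat alone does not mark background, since AT4G37850 repeated a value of 9.31 in empty-vector arrays with CHX. For members at the floor or near background without CHX, the difference is a lower bound, and its rank among members is not settled.

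The members with the largest differences among the named ones included several genes of unknown or partly known function. AT5G19240 had 11.75, 12.32 and 12.67 as the lowest, median and highest of 12 CHX arrays, against 2.40, 2.43 and 2.47 in 6 arrays without CHX. The difference, at least 9.85 since the level without CHX lay at background, was the largest value of any named member (12.28 ± 0.29, SD, n = 12, against 2.43 ± 0.03, n = 6). A probe set without a locus had the largest value of all, 10.55. AT5G52750 and AT5G52760, which encode proteins with a heavy-metal-associated domain and lie next to each other, followed with 9.10 and 8.98. AT5G52750 stood at 11.50, 12.06 and 12.46 with CHX and at 2.57, 2.73 and 3.77 without. AT5G52760 stood at 10.86, 11.36 and 11.70 with CHX and at 2.30, 2.31 and 2.66 without. The arrays of the arms did not overlap for either gene. MSRB9, a methionine sulfoxide reductase that repairs oxidised methionine, ranged from 12.09 to 12.57 with CHX and from 2.92 to 4.43 without, a difference of 8.77. AT5G19110, of the aspartyl protease family, differed by 8.15. AT1G05575, AT2G25735, AT5G17350 and AT1G58420, to which no role is given here, differed by 7.89, 7.87, 6.95 and 6.81. In AT2G25735 all 12 arrays without CHX were at the floor.

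**Figure D1:**
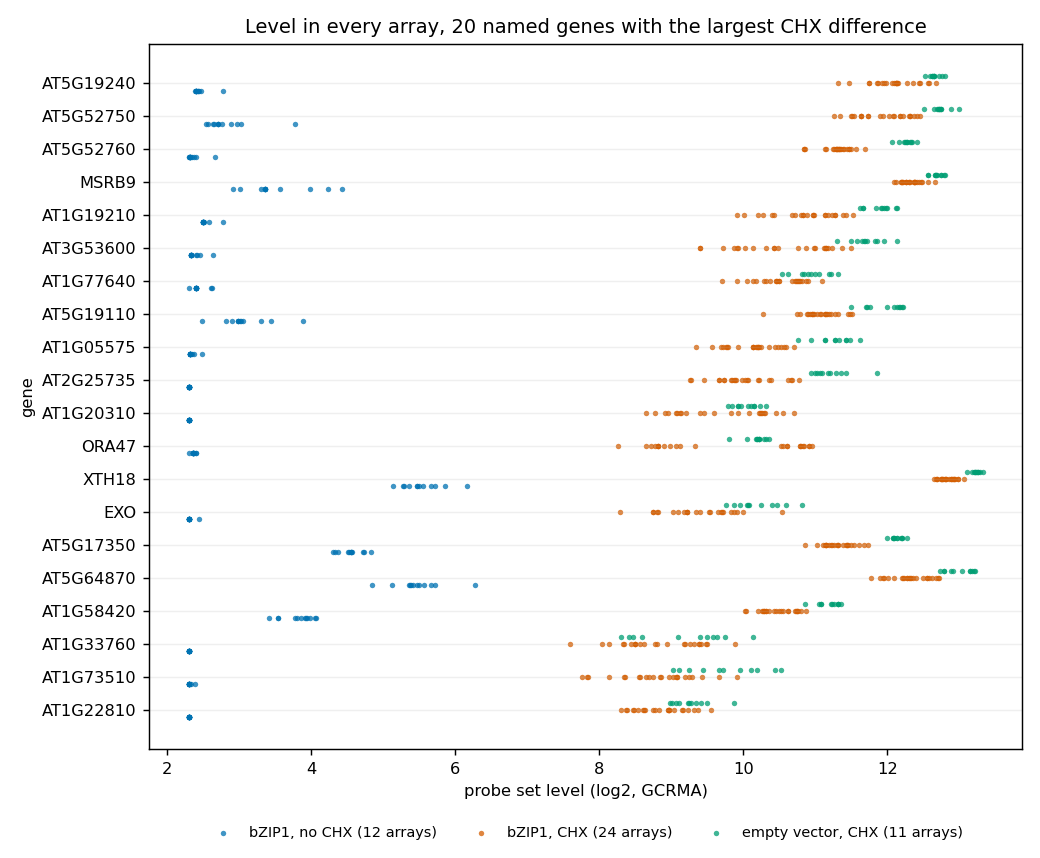
Log2 level of the 20 named members with the largest CHX difference (rows) in each of the 47 arrays: bZIP1 cells without CHX (12), bZIP1 cells with CHX (24) and empty-vector cells with CHX (11). The arrays without CHX lie apart from both CHX arms in every row, and ORA47 in bZIP1 cells with CHX spreads from 8.26 to 10.96.

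Several named members encode regulators of transcription. The grouping by protein family in this and the next paragraph was made from general knowledge after the values were seen. Members of the AP2/ERF family, which bind DNA in hormone and stress responses, were AT1G19210 (difference 8.54), AT1G77640 (8.26), ORA47 (7.34), AT1G33760 (6.68) and AT1G22810 (6.66). AT1G19210 had 10.40, 11.05 and 11.52 as lowest, median and highest with CHX and stayed between 2.50 and 2.51 without it. ORA47, an activator of jasmonate biosynthesis genes, had 8.26, 9.82 and 10.85 with CHX, a wide spread, and 2.36, 2.36 and 2.41 without. AT1G33760 and AT1G22810 were at the floor in all 12 arrays without CHX. Among C2H2 zinc finger proteins, AT3G53600 had 9.87, 10.81 and 11.50 with CHX and 2.33, 2.41 and 2.64 without. STZ, the salt- and stress-induced repressor also called ZAT10, was already well above the floor without CHX, at 7.14, 7.35 and 7.54. With CHX it reached 12.57, 12.87 and 13.07. The bHLH gene AT4G37850 and the GRAS gene AT5G59450 differed by 5.50 and 5.72. IAA30, an Aux/IAA protein of the family that represses auxin responses, had 7.15, 7.86 and 8.50 with CHX and 2.52, 2.71 and 3.15 without.

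Other named members belong to calcium signalling, hormone metabolism, the cell wall and membranes. CML37, a calmodulin-like calcium sensor induced by wounding, had 12.67, 12.82 and 12.95 with CHX and 7.35, 7.63 and 7.89 without, the difference being 5.17. CML23, another calmodulin-like protein, differed by 5.17 too, from a mean of 6.16 ± 0.13 (SD, n = 6) to 11.32 ± 0.27 (n = 12). The EF-hand protein AT5G39670 differed by 5.24. GH3.1, of the family that conjugates auxin to amino acids, was at the floor in the 6 arrays without CHX or DEX and at 7.05, 7.32 and 7.66 with CHX. OPCL1, a CoA ligase of the jasmonate pathway, differed by 5.28. XTH18, which cuts and rejoins xyloglucan in the wall, had 12.78, 12.92 and 13.06 with CHX and 5.28, 5.54 and 6.16 without. EXO, the brassinosteroid-responsive growth gene EXORDIUM, had 8.75, 9.59 and 10.54 with CHX and remained within 2.30 to 2.31 without. The flotillin-like membrane protein AT5G64870 had 12.21, 12.44 and 12.72 with CHX and 5.39, 5.49 and 6.28 without. The TIR-domain protein AT2G32140 differed by 6.65, the ARM-repeat protein AT3G02840 by 5.81, and the GDSL-type lipase AT1G56670 by 5.49.

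Other named genes of the members' families were looked at where gene symbols allow it. Of 30 families looked up by gene symbol, 6 held a member. Several of the 30, such as SAUR, MYB and TIFY/JAZ, had 0 named genes on the array and could not hold one. The lookup also misses genes whose symbol does not give the family, such as the bHLH gene AT4G37850, so the count is a lower bound. For the same reason the medians below describe the named genes alone and not whole families. The 7 named Aux/IAA genes had a median difference of 0.03, with 2 at 1 or more, although IAA30 differed by 5.10. The 10 named XTH genes had a median of -0.00, and XTH18 was 1 of 2 at 5 or more. The 5 named GH3 genes had a median of 0.78 and again 2 at 5 or more, of which GH3.1 is a member. The 8 named calmodulin-like genes had a median of 1.90, with 4 at 1 or more, CML37 and CML23 being the members. The 7 named WRKY transcription factors held no member, yet their median was 2.61 and 4 were at 1 or more. The 51 named UDP-glycosyltransferases held none, with a median of -0.01. Symbols name 1 AP2/ERF gene (ORA47) and 1 C2H2 zinc finger gene (STZ) here, both members, so those families could not be described beyond them.

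Some members were neighbours in the genome. In the order of protein-coding genes of the RefSeq annotation, 4 pairs of members lay directly next to each other: AT5G52750 with AT5G52760, AT1G73510 with AT1G73530, AT3G19020 with AT3G19030, and DPE1 with AT5G64870. That is 8 of 57 named member loci (14.0%), against 57 of 12236 other named loci (0.466%) that lay next to a member. Those 57 neighbours had a median CHX difference of 0.22, and 20 (35.1%) differed by 1 or more, against a median of -0.01 and 10.4% over the 12179 loci not next to a member. No test was made of either contrast. AT5G52750 and AT5G52760 belong to 1 protein family, and whether RNA of one hybridises to the probes of the other was not tested. DPE1, a plastid disproportionating enzyme of starch breakdown, had a level with N of 8.92 ± 0.47 and with KCl of 9.78 ± 0.49 (SD, n = 12 each), while its neighbour AT5G64870 had 12.30 ± 0.29 and 12.33 ± 0.26.

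The empty-vector cells were arrays that the rule did not use, so they measure the members again in CHX-treated cells without GR::bZIP1. Their mean without DEX exceeded that of bZIP1 cells without CHX by at least 5 in 104 of the 108 members, against a background of 322 of 22746 probe sets (1.42%). The median was 6.69 and the range 4.52 to 10.91, and the lowest empty-vector array lay above the highest array without CHX in all 108. Both differences subtract the same 6 arrays without CHX, so the 2 sets of values are not independent. The 4 members under 5 were AT4G27654 (4.52), IAA30 (4.66) and 2 probe sets without a single locus (4.81 and 4.92). AT4G27654, to which no role is given here, had 6.46, 6.76 and 7.25 as lowest, median and highest in empty-vector cells and 7.16, 7.80 and 8.68 in bZIP1 cells with CHX. At the top, STZ reached 13.71, 13.78 and 13.88 and CML37 13.49, 13.56 and 13.66, both above their highest bZIP1 array without DEX.

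Most members stood somewhat higher in empty-vector cells than in bZIP1 cells with CHX. The difference at no DEX was positive in 97 of 108, with a median of 0.54; it was 0.5 or more in 59 and -0.5 or less in 1. Over the 2514 probe sets with a CHX mean above 8 the median was 0.22, and over all probe sets it was -0.01. Vector, preparation and summarisation differ together here and cannot be told apart, and no test was made.

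**Figure D2:**
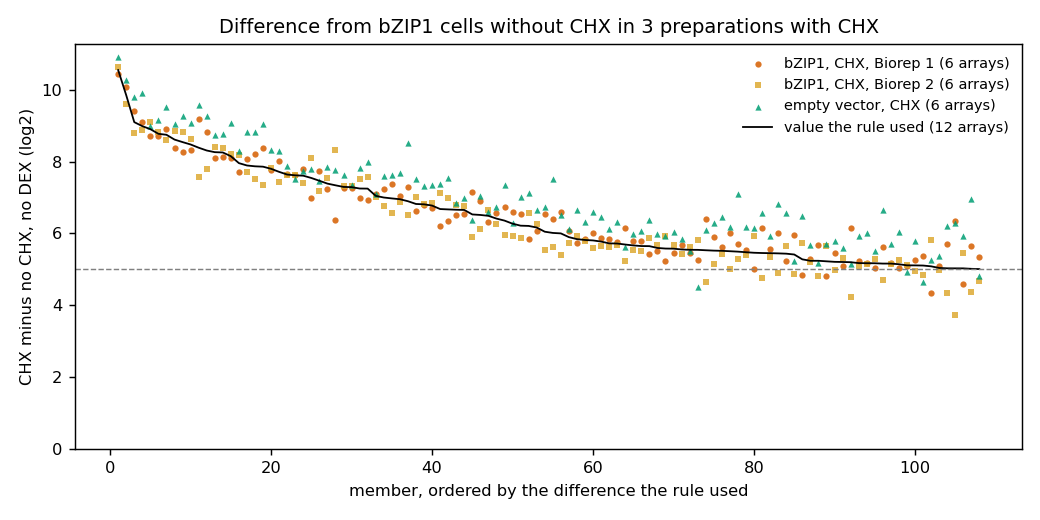
Difference from bZIP1 cells without CHX, in cells without DEX (y axis, log2), for the 108 members ordered by the value the rule used (x axis), in Biorep 1, Biorep 2 and the empty-vector arm (6 arrays each). The medians are 6.33, 5.91 and 6.69. Both Bioreps entered the mean that the rule required to differ by 5, and all 3 sets of arrays are set against the same 6 arrays. The labels do not say whether the empty-vector arrays came from 1 preparation.

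Both Bioreps and the empty-vector arm placed the members at different heights. Those of the Bioreps are values the rule used, so their size is a description and shows nothing about repeatability. Biorep 1 gave differences from 4.34 to 10.45 (median 6.33) and Biorep 2 from 3.71 to 10.65 (median 5.91). The lowest value belonged to AT4G33666, to which no role is given here, at 6.34 in Biorep 1, 3.71 in Biorep 2 and 6.30 in empty-vector cells.

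The Bioreps differed from each other in most members. Of the 108, 35 were higher and 51 lower in Biorep 2 (limma, adjusted p under 0.05), against 14.0% and 11.2% of all probe sets. After quantile normalization of all 47 arrays 40 were higher and 40 lower, so the lean to lower values depends on the scaling. In either direction that is 79.6% of the members and 25.2% of all probe sets. Among the probe sets above 4 in at least 3 arrays of the arm, the share was 57.6%, and 87 members (80.6%) passed. That set is not matched to the high level of the members. The sizes were modest for most: 17 members differed by 1 or more, 14 of them downward, and the median was -0.14. AT4G33666 had 11.09, 11.60 and 12.35 as lowest, median and highest of the 12 arrays of Biorep 1 and 8.11, 8.91 and 9.82 in Biorep 2, so the Bioreps did not overlap. Its difference was -2.66 ± 0.16 (SE, adjusted p = 2.01e-10, limma). ORA47 went the other way, with 8.26, 8.82 and 9.34 in Biorep 1 and 10.53, 10.79 and 10.96 in Biorep 2, a rise of 1.90 ± 0.08 (adjusted p = 8.86e-13, limma), and in empty-vector cells it lay between them at 9.80 to 10.35. AT1G20310 also rose, by 1.14 ± 0.07 (adjusted p = 1.60e-10, limma). The zinc finger gene AT3G53600 fell by 1.12 ± 0.07 (adjusted p = 5.57e-10, limma), and AT4G37900 fell by 1.34 ± 0.09 (adjusted p = 3.82e-10, limma). The AP2/ERF members AT1G19210 (0.68 ± 0.09), AT1G77640 (0.36 ± 0.11) and AT1G33760 (0.79 ± 0.16) also passed on the higher side, while no difference passed for AT1G22810. Each Biorep is taken as 1 preparation, so the test measures the spread between treatment replicates and not between preparations.

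**Figure D3:**
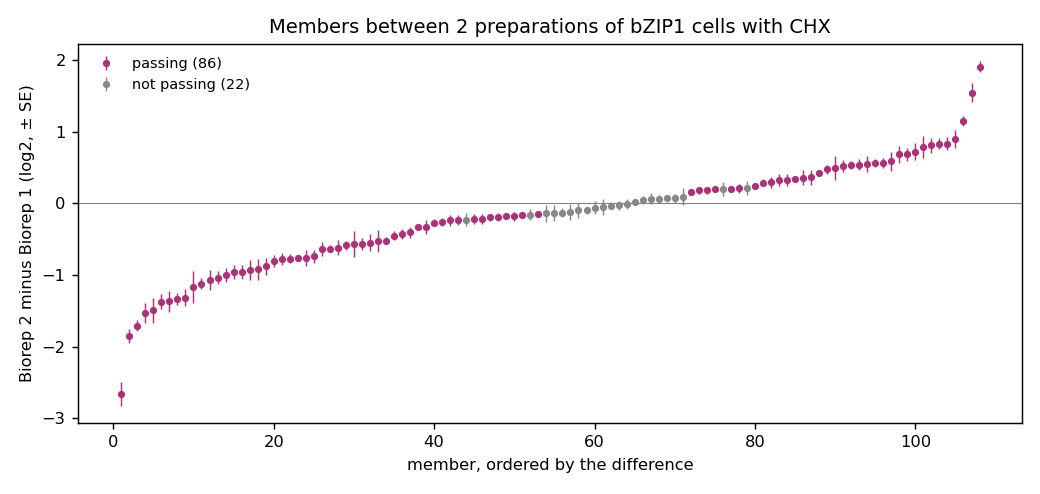
Biorep 2 minus Biorep 1 in bZIP1 cells with CHX (y axis, log2, ± SE, 12 arrays each) for the 108 members in order of the difference (x axis), coloured by whether the limma adjusted p was under 0.05. The values run from -2.66 to 1.90; 86 members pass and 22 do not.

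A part of the members was lower with nitrogen in CHX-treated cells. In the bZIP1 arm with CHX, 22 of 108 members were lower with N than with KCl and 1 was higher (limma, adjusted p under 0.05), against 1.16% and 0.862% of all probe sets. All 108 members were above 4 in at least 3 arrays of this arm, where the rule asked for high levels. Among the probe sets above that filter 3.91% were lower, and 26 members (24.1%). The members' levels lay far above 4, with a median of 10.19 without DEX. That set is therefore not matched to them in level, and a difference in power was not tested. The N effect was below 0 in 86 of 108 members, with a median of -0.12, while 45.0% of the 9347 probe sets above 4 in 3 or more arrays of both CHX arms were below 0, with a median of 0.02. The 22 ranged from -1.08 to -0.21, with a median of -0.45. Each was below 0 in both Bioreps, but the 22 were chosen from these same arrays, so that sign count is a description only. In bulk samples fewer cells of a type and less RNA per cell cannot be told apart.

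DPE1 was the named member with the largest fall. Its lowest, median and highest levels in 12 arrays were 8.15, 8.95 and 9.88 with N and 9.14, 9.72 and 10.84 with KCl, so the groups overlapped. It fell by 0.86 ± 0.12 (SE, adjusted p = 0.000451, limma). AT1G73510, to which no role is given here, had 7.76, 8.46 and 9.25 with N and 8.65, 9.08 and 9.92 with KCl, and fell by 0.74 ± 0.11 (adjusted p = 0.000584, limma). AT1G05670, a pentatricopeptide-repeat protein, had 7.32, 8.17 and 9.38 with N and 8.02, 9.06 and 10.04 with KCl, and fell by 0.72 ± 0.11 (adjusted p = 0.000789, limma). Its Bioreps lay 1.37 apart, which is more than the N effect. AT1G80850, of the DNA glycosylase family of base repair enzymes, had 8.57, 8.92 and 9.37 with N and 9.22, 9.56 and 9.99 with KCl and overlapped little; it fell by 0.67 ± 0.11. The AAA-type ATPase AT2G18190 fell by 0.63 ± 0.11, AT4G14368 by 0.60 ± 0.09 and AT4G37900 by 0.55 ± 0.09. Smaller falls passed in AT1G05575 (-0.46), the RNA-binding protein AT1G73530 (-0.44), the AP2/ERF gene AT1G22810 (-0.41), AT2G25735 (-0.39), the C1-domain protein AT2G27660 (-0.38) and the zinc finger gene AT3G53600 (-0.31). Both members of the pair AT1G73510 and AT1G73530 were thus lower with N. AT3G19030 was the 1 member that rose, with 10.40, 10.51 and 10.85 with N and 9.94, 10.34 and 10.54 with KCl (0.25 ± 0.05, adjusted p = 0.0109, limma). The hormone and calcium genes GH3.1, IAA30, OPCL1, CML37 and CML23 did not pass.

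The number of passing members rested on all 3 treatment replicates and on Biorep as a covariate. It fell from 23 to 12, 6 and 3 without treatment replicate 1, 2 and 3 (0.607%, 0.303% and 0.347% of all probe sets). Without the covariate 4 passed (0.418% of all probe sets), and after averaging within each Biorep and group 1 did (0.0264%). Nothing in the labels says that treatment replicates came from separate cultures, so these p-values measure a spread between arrays that may be technical.

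The empty-vector arm, which shares no array with the bZIP1 arms, gave the same direction for each of the 22 members. Their N effects there ran from -1.03 to -0.10, with a median of -0.42. How many of all probe sets called lower with N in bZIP1 cells with CHX keep that sign here was not counted. The 22 are therefore not set against a background of like calls. A single member, a probe set without a locus, passed in this smaller arm (-0.93 ± 0.12, adjusted p = 0.0452, limma), against 0.0615% of all probe sets lower and 0.101% higher; at an unadjusted p under 0.05 there were 29 members (26.9%), against 7.71% of all probe sets. Without replicate 1, 2 and 3 the number passing was 5, 0 and 2, against 3.03%, 0.0264% and 2.61% of all probe sets, so the members' share was then near the background. The call of the reported member was lost without replicate 1 or 2, and 1 of the 2 without replicate 3 was higher. DPE1 had 10.11, 10.29, 10.38, 10.80 and 10.97 in the 5 KCl arrays and 9.24, 9.69 and 10.33 as lowest, median and highest of the 6 N arrays, an effect of -0.70 ± 0.15 that did not pass (adjusted p = 0.203, limma). AT1G73510 had 9.96, 10.11, 10.19, 10.45 and 10.52 with KCl and 9.02, 9.34 and 9.73 with N. These arrays did not overlap, and the effect of -0.89 ± 0.15 did not pass either (adjusted p = 0.0947, limma). AT3G19030, the member that rose, had an effect of 0.38 ± 0.09 (adjusted p = 0.234, limma). Over the 108 members the N effects of both CHX arms had Pearson's r of 0.888 and Spearman's rho of 0.862, across probe sets, which share their arrays and are not independent replicates. Over the 9347 probe sets above 4 in both arms r was 0.653. The sign was the same in 85 members (78.7%), 66 of them below 0, and in 69.0% of those 9347 probe sets. Neither these nor all probe sets were matched to the members in level, so the closer agreement is not shown to be particular to the members.

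**Figure D4:**
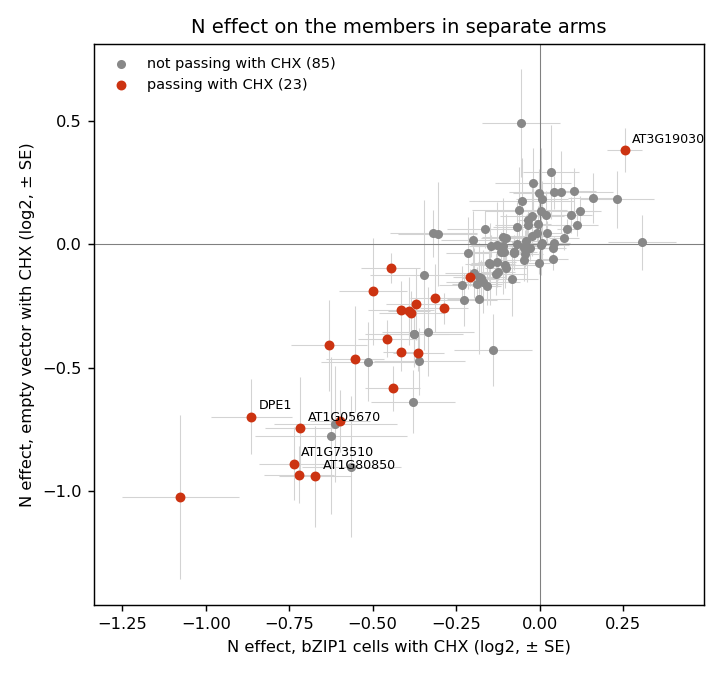
N effect (with N minus with KCl, log2, ± SE) of the 108 members in bZIP1 cells with CHX (x axis, 24 arrays) and in empty-vector cells with CHX (y axis, 11 arrays), with the 23 that passed in bZIP1 cells in red. The red points below 0 on the x axis are also below 0 on the y axis, and DPE1 lies at -0.86 and -0.70.

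Without CHX no member passed for N (limma, adjusted p under 0.05; lowest adjusted p 0.328), and 20 of all 22746 probe sets did (0.0879%). At an unadjusted p under 0.05 there were 15 members (13.9%), against 6.34% of all probe sets. Levels were near the floor for many, and only 39 members were above 4 in at least 3 of the 12 arrays. Of the 22 members lower with N under CHX, 15 (68.2%) had an N effect below 0 without CHX, close to the 65.7% of all 108 members, and 3 were at the floor in all 12 arrays there. The N effect itself differed between the bZIP1 arms in 3 members, 1 higher and 2 lower with CHX, against 0.211% and 0.132% of all probe sets. AT1G73510 had an N effect lower by 0.73 ± 0.16 with CHX than without (adjusted p = 0.0240, limma). Of its 12 arrays without CHX 10 were at the floor, so an N effect could hardly be seen there. The other 2 have no single locus, and their N effects differed by -0.46 and 0.90; the first of them was also near background without CHX. Without replicate 3 all 3 calls were lost and 1 other member passed.

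In empty-vector cells DEX has no GR fusion to act on, and this arm was not used by the rule. Here 8 members were lower and 1 was higher with DEX (limma, adjusted p under 0.05), against 0.431% and 0.615% of all probe sets. Among probe sets above 4 in 3 or more arrays of this arm, 1.99% were lower and 2.2% higher, and 13 and 3 members. That set was not matched to the members in level. The median effect over the members was -0.07, and 70 of 108 were below 0. The sign was not counted over other probe sets. AT1G33760, of the AP2/ERF family, had 8.30, 8.42, 8.48, 8.60 and 9.09 in the 5 DEX arrays, and 9.40, 9.61 and 10.13 as lowest, median and highest of the 6 without. The arrays did not overlap, and the effect was -1.10 ± 0.18 (adjusted p = 0.0383, limma). AT5G38700 fell by 0.71 ± 0.10 (adjusted p = 0.0184, limma) and the protease gene AT5G19110 by 0.41 ± 0.06 (adjusted p = 0.0265, limma). The flotillin-like AT5G64870 had 12.73, 12.79, 12.79, 12.89 and 12.92 with DEX and 13.03, 13.16 and 13.22 without. This small fall of 0.34 ± 0.03 had the lowest adjusted p of the members (0.00455, limma). AT4G39670, of the glycolipid transfer protein family, was the 1 member that rose, with 11.56, 11.65, 11.82, 11.83 and 11.89 with DEX and 10.80, 11.10 and 11.24 without (0.69 ± 0.07, adjusted p = 0.00723, limma). The 4 others that fell are unnamed, with effects between -1.28 and -0.24. All 9 calls were lost without replicate 2, and 2 were left without replicate 3, while 11 members passed without replicate 1 (0.0352%, 2.85% and 3.45% of all probe sets in that order).

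**Figure D5:**
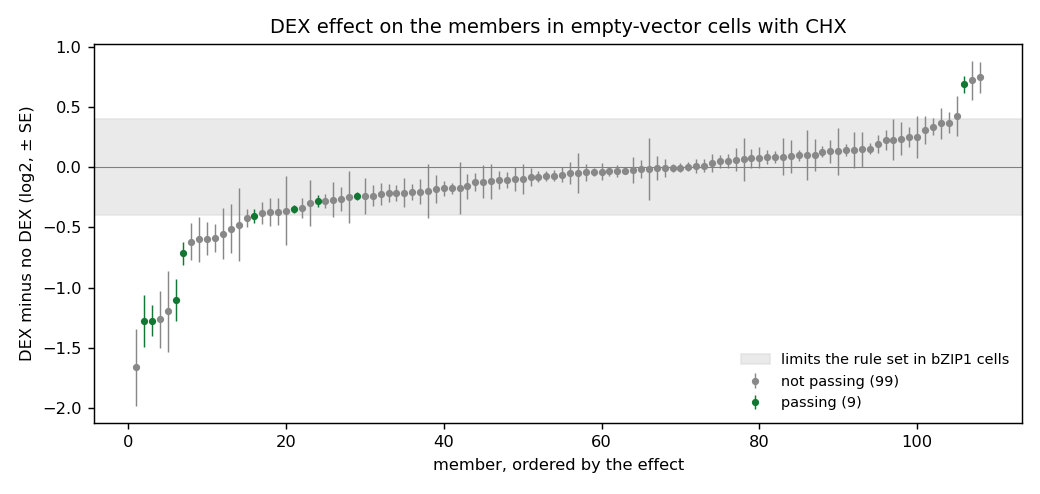
DEX effect (with DEX minus without, log2, ± SE) in empty-vector cells with CHX (y axis, 11 arrays) for the 108 members in order of the effect (x axis), coloured by whether the limma adjusted p was under 0.05. The grey band marks the limits of -0.4 to 0.4 that the rule set in bZIP1 cells; the values here run from -1.66 to 0.74.

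In bZIP1 cells the DEX effects were limited by the rule and are given as a description. With CHX they ran from -0.40 to 0.38 with a median of -0.20, and 85 of 108 lay below 0. Without CHX they ran from -0.38 to 0.33 with a median of -0.00. There 69 of 108 members were not above 4 in 3 or more arrays, so a DEX effect could hardly be seen in many. AT1G33760, AT5G64870 and AT5G19110 had -0.28, -0.27 and -0.32 with CHX, below 0 as in empty-vector cells. AT5G38700 and AT4G39670 had 0.11 and 0.04. The difference in DEX effect between vectors was not tested.

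At the edges of the rule, the members just inside the difference were AT1G19025 (5.02) and 2 probe sets without a single locus, the higher of them at 5.01. Just outside was GRX480, a glutaredoxin (4.99), with 2 further probe sets without a single locus (4.99 and 4.98). The DEX limits cut more: of the 210 probe sets past the difference, 77 lay outside them with CHX, 61 below -0.4 and 16 above 0.4, and 37 outside without CHX, 12 of which were outside in both. AT4G27580 (-0.40 with CHX) was just inside and AT5G28610 (0.42 with CHX) just outside.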

How the data were processed

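Transcript levels came from 47 ATH1 arrays. The deposited values are log2 levels per probe set, which the authors made with GCRMA per the submitters' processing notes; its version is not given in the sources used here, and the log2 scale and separate runs per arm were read from the values. Of 22810 probe sets 64 controls were left out. Groups came from the labels. The members and all gene lists were chosen with earlier results of these data known. Effects of N and DEX (each averaged over the other) and of Biorep were fitted per arm with limma 3.58.1 (lmFit, eBayes, two-sided) in R 4.3.3, with Biorep as covariate in the bZIP1 arm with CHX; the difference of N effects was fitted on all 47 arrays. Adjusted p-values are Benjamini-Hochberg over 22746 probe sets, with a threshold of 0.05. The self-test on simulated data recovered 91.5% of 200 probe sets changed by 1 log2 unit for the N effect in the bZIP1 arm with CHX and 80.5% for the DEX effect in the empty-vector arm (22746 probe sets each). False calls were 16 and 10. The changed probe sets had a mean level above 4, and the noise was independent between arrays, with no Biorep or replicate-number effect. Smaller changes, as in most N effects reported here, were not simulated. Arrays hold no counts, so their number limits the precision. Replicate numbers were shared between groups. Of same-numbered pairs, 16 of 36 correlated above 0.1 in the bZIP1 arm with CHX, 14 of 18 in that without, and 8 of 15 in the empty-vector arm. The lowest value in the empty-vector arm was 0.008. A batch shared by replicates of 1 number can therefore not be set aside. The fits reported did not treat the numbers as pairs, and a fit with them as a block is given among the alternatives. A probe set was called at the floor within 0.01 of its arm's lowest value. Named genes follow a rule: the 20 largest CHX differences, up to 6 lowest adjusted p per test, members of the gene families, the edges of the rule, the extremes of empty-vector level and neighbouring loci; further members were named after their values were seen. Alternatives were each replicate left out, the replicate block, a low-value filter, quantile normalization, a trended robust fit, other treatments of Biorep and other limits of the rule.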

Additional observations from a re-analysis of the deposited data

Results flagged for a closer look

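In 3 of 152 groups of named genes, a single array stood apart from the others of its group in bZIP1 cells with CHX. Chance gives about 1 in 20 for like arrays, which is more than was found. These groups mix 2 Bioreps, so that rate need not hold here. AT5G19110 reached 11.46 in treatment replicate 2 of Biorep 2 with N and no DEX, where the other 5 arrays lay between 11.03 and 11.17. EXO was at 8.75 in treatment replicate 1 of Biorep 1 with N and no DEX, against 9.40 to 9.72 in the others. GH3.1 was at 6.91 in treatment replicate 3 of Biorep 2 with N and DEX, against 7.18 to 7.34. The N effect differed between bZIP1 cells with and without CHX, by the interaction test in limma, in AT1G73510 (-0.73) and in 2 probe sets without a single locus (-0.46 and 0.90). For the first of these the N effect was -0.41 ± 0.06 (SE) with CHX and 0.04 ± 0.07 without, where it lay near background, as AT1G73510 did, so an N effect could hardly be seen there. For the second it was 0.07 ± 0.04 with CHX and -0.83 ± 0.21 without.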

How the results depend on the processing

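The number of members was 85 to 113 under arrays with N or KCl alone, either Biorep alone, quantile normalization and each replicate left out (99 to 111). It was 202 with a difference of 4, 55 with 6, 37 with DEX limits of 0.2 and 210 with no DEX limits. Members passing for N in the bZIP1 arm with CHX went from 23 to 4 without the Biorep covariate, 1 with treatment replicates averaged, 2 in Biorep 1 alone and 1 in Biorep 2 alone, and to 3 to 12 without 1 replicate. For N in the empty-vector arm the 1 became 9 under the low-value filter, 0 with the trended robust fit and 0 to 5 without 1 replicate. For DEX there the 9 became 16 under the filter and 0 to 11 without 1 replicate. For the difference in N effects the 3 became 5 with quantile normalization, 1 with Biorep dropped from the model and 1 to 2 without 1 replicate. For Biorep 86 became 80 with quantile normalization (75 of the 86 calls remained) and 72 to 73 without 1 replicate. With the replicate number as a block, passing members were 30 for N with CHX (2.59% of all probe sets) and 5 for N in empty-vector cells (0.303%). There were 9 for DEX (0.765%), where 5 of the 9 calls remained, and 87 for Biorep (26.0%). The difference in N effects had 9 (0.541%), 3 higher and 6 lower, and N without CHX had 0 (0.0659%). Under the low-value filter, 1.37% of the probe sets kept passed for N in empty-vector cells and 4.19% for DEX. For the difference in N effects, 0.356% of all probe sets passed with quantile normalization and 0.171% with Biorep dropped. Over all probe sets, the count passing ranged over the alternatives from 6 to 671 for N with CHX (459 in the fit reported), 5 to 98 for N without CHX (20), 6 to 689 for N in empty-vector cells (37), 8 to 784 for DEX (238), 3943 to 5923 for Biorep (5739) and 39 to 123 for the difference (78). No result reversed under these alternatives. In the empty-vector arm, leaving out replicate 1 or 3 leaves a lone array for KCl with DEX, assumed to vary like the other groups.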
